A study of Xenopus laevis x Xenopus muelleri with 8 samples.

Results

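Xenopus laevis carries most of its genes as L and S homeologs, and this account sets the array signal of the L homeolog against that of the S homeolog inside each of 8 hybrid frog ovaries. Genes were taken as pairs where the platform annotation named both a .L and a .S symbol, each on a probe set with a single gene symbol. For a homeolog with several probe sets, the set with the highest mean over the 8 arrays was kept. This gave 622 pairs, that is 1244 homeologs of the 5790 genes with a probe set of their own. A further 2708 L homeologs and 1645 S homeologs had no partner measured in this way. No filter on low values was applied, so every pair entered every comparison unless stated.

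The ovaries came from sexually mature hybrids of an X. laevis mother from the Cape of South Africa and an X. muelleri father from Swaziland, raised from eggs to adulthood under standard conditions. Titles put them in groups of 4, with 4 normal ovaries and 4 ovaries called sex-reversed, all titled as biological replicates. The labels do not say how sex was reversed or how the animals were related, so the p-values cover only the spread between these samples. All source names give the tissue as testis, and that of sex-reversed replicate 4 reads normal, whereas titles and descriptions say ovary and sex-reversed, and these were followed.

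X. laevis arose by the joining of the genomes of different diploid ancestors, and its chromosomes are sorted into a long (L) and a short (S) set, one from each ancestor. Homeologs are the copies of a gene on matching L and S chromosomes, and many are still similar in sequence although they can differ in when and where they are expressed. X. muelleri is a tetraploid relative with the same kind of paired chromosomes, so a hybrid holds a maternal and a paternal allele of each homeolog. Oocytes fill most of a mature ovary and store maternal mRNAs for cyclins, histone chaperones and replication proteins that the early embryo uses before it transcribes its own genes.

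The values are log2 signals per probe set, and a difference of 1 between them is a fold of 2 in signal. A probe set's brightness also depends on how well its probes bind, so L minus S is a difference in signal between different probe sets and not a ratio of transcript amounts. The probes were designed on X. laevis, and a sequence difference in the paternal allele can lower a probe set. Both properties are the same on every array except for allelic differences between animals, so a change of L minus S from array to array does not carry the fixed part.

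Array medians lay between 6.0 and 6.04 and lower quartiles between 3.99 and 4.05. Of the ovary and oocyte markers, 8 of 8 symbols were measured, with means from 6.64 to 13.1 and a median of 10.3. Of the testis and sperm markers 3 of 9 were measured, at 3.80 to 5.12. Erythrocyte markers lay at 3.07 and 7.97 for the 2 of 3 symbols measured, and liver markers at 2.82 to 5.27 over 5 homeologs. The arrays formed a set of normal replicates 1 and 4 with sex-reversed replicates 3 and 4, and a set of the other 4. Correlations of whole arrays were 0.954 to 0.972 inside the sets and 0.943 to 0.953 between them. Each set held arrays of both groups.

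Neither set of homeologs was the brighter in these ovaries as a whole. In normal replicates 1 to 4 the median of L minus S over the 622 pairs was -0.10, -0.01, -0.09 and -0.04, and in sex-reversed replicates 1 to 4 it was -0.06, -0.01, -0.07 and -0.05. All 8 medians lay just under 0, and the groups overlapped. Their mean was -0.05 ± 0.03 (SD, n = 8). The L homeolog was the brighter in 295 to 309 pairs per array, or 47.4% to 49.7% of them. L exceeded S by 1 or more in 185 to 202 pairs and S exceeded L by as much in 200 to 222. The group means of the median differed by 0.01, with -0.05 ± 0.02 in sex-reversed and -0.06 ± 0.04 in normal ovaries (SD, n = 4 each; exact permutation test over arrays, two-sided, p = 0.629, where the smallest possible p is 0.0286). Over the means of 8 arrays L was brighter in 299 pairs and S in 323, with a median of -0.08. Among the 283 pairs in which both homeologs reached 6, near the array medians, the median was 0.055, on the other side of 0.

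**Figure D1:**
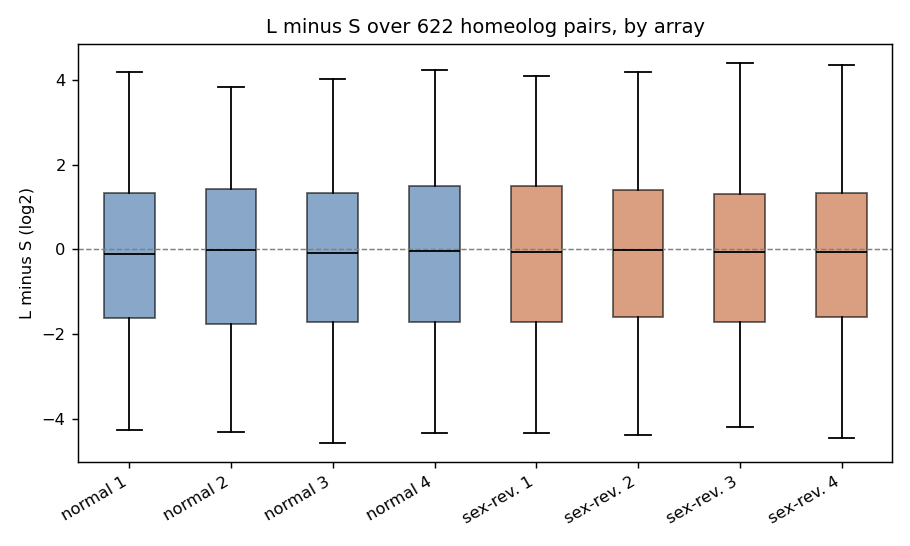
L minus S (log2) over the 622 pairs on each of the 8 arrays, blue for normal and orange for sex-reversed ovaries. Boxes span the quartiles, the line in each is the median and whiskers reach the 5th and 95th percentiles; the 8 medians lie between -0.10 and -0.01 and the boxes are alike in height.

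Single pairs, in contrast, were mostly far from equal signal. The median absolute difference was 1.48, a fold of 2.80 in signal, with quartiles of 0.65 and 2.78. A difference of at least 1 was found in 396 pairs (63.7%), of at least 3 in 134 (21.5%) and of at least 5 in 30 (4.82%). In limma's test of L minus S against 0, with Benjamini-Hochberg adjustment over the 622 pairs, L was brighter in 250 pairs (40.2%) and S in 268 (43.1%), 518 (83.3%) in all, at an adjusted p under 0.05. Of the 518 calls 488 kept call and sign when each array was left out in turn. L was brighter on 8 of 8 arrays in 209 pairs and S in 231, while the order changed between arrays in 182 pairs (29.3%).

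Differences of this size are also found between probe sets that the annotation gives to a single gene. In 777 symbols with at least 2 probe sets, the brightest set was compared with the next, and the absolute difference had a median of 1.48 with quartiles of 0.68 and 2.64. By the same limma test 647 of them (83.3%) differed, which is the percentage found for L against S. A difference of at least 1 was seen in 64.9% of symbols and of at least 3 in 19.6%. With both members at 6 or above, the medians were 1.14 for 283 homeolog pairs and 1.21 for 317 symbols. In the 139 pairs with more than 1 probe set for a homeolog, the choice of probe set decided which homeolog was the brighter in 53 (38.1%). The values below are therefore signals of named probe sets, and other probe sets of the same homeolog are given for some of the pairs only.

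**Figure D2:**
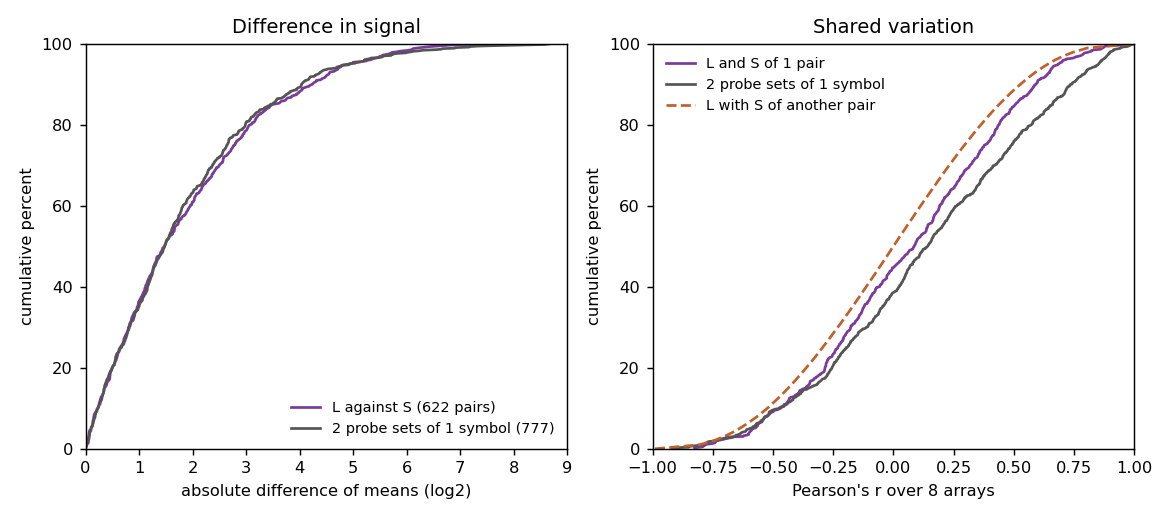
Cumulative percentage of the absolute difference of means (log2, left) and of Pearson's r over 8 arrays (right). Purple is L against S in 622 pairs and grey is the brightest against the next probe set in 777 symbols. The dashed line on the right is L of a pair with S of another. On the left both curves cross 50 percent at 1.48. On the right the homeolog curve lies between the others at the median and the quartiles, with medians of 0.09, 0.14 and -0.00.

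A probe set that the annotation lists for both homeologs at once existed for 41 of the pairs. It was brighter than both homeolog-specific sets in 15, lay between them in 16 and under both in 10. For rad23b, a receptor of ubiquitinated proteins that also acts in DNA repair, the joint probe set had a mean of 10.1 where L had 5.08 and S had 4.12. For h2az1, which encodes the histone variant H2A.Z, the joint set had 4.63 and the separate ones 12.8 and 9.51. These genes were chosen after their values were seen.

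Both homeologs reached 6 in 283 pairs (45.5%), L alone in 87, S alone in 104 and neither in 148. In 29 pairs L reached 6 while S lay under the lower quartile of every array, and in 32 pairs the reverse held. The median level was 6.73 for L homeologs and 6.95 for S homeologs of pairs, against 6.83 and 6.90 for L and S homeologs without a measured partner. Among the 94 pairs with a mean level of 9 to 14 L was brighter in 52.1%, and among the 143 pairs at 2 to 5 in 46.9%. The median absolute difference was 1.06 in the former and 0.91 in the latter, and it was largest, at 2.33, among the 184 pairs at 5 to 7. The level here is the mean of L and S, so a pair of a dim and a bright homeolog falls between the ends. The order of these medians is thus partly set by the grouping.

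The 10 pairs with the largest excess of L were nap1l1, pcna, cyp26a1, bmpr1a, cul1, anxa2, tmbim6, filip1, dlx2 and utp15, with L minus S from 8.28 to 5.47. They were the largest among pairs that passed with the same sign on 8 of 8 arrays and a brighter member of at least 6. In 7 of the 10 the S mean was under the lower quartile of every array, and the order among them is one of kept probe sets: with plain sets alone bmpr1a had 4.63 in place of 6.13. The L homeolog of nap1l1, a histone chaperone that assembles nucleosomes, read 12.18, 12.48, 12.42 and 12.38 in normal replicates 1 to 4 and 12.33, 12.41, 12.34 and 12.25 in sex-reversed replicates 1 to 4. Its S homeolog read 3.71, 4.01, 4.0 and 4.29, then 3.82, 4.92, 4.0 and 3.79. No S value came within a log2 of 7 of any L value, and the difference was 8.28 ± 0.13 (SE, n = 8; limma adjusted p = 4.85e-10). The S values lay around the lower quartile of the arrays, and detection above background was not tested. The second probe set of nap1l1.L lay at 9.20 and the probe set listed for both homeologs at 10.1, both still above S.

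The L homeolog of pcna, the sliding clamp that holds DNA polymerase on its template, read 13.37, 13.30, 13.31 and 13.52 in normal and 13.40, 13.49, 13.54 and 13.28 in sex-reversed ovaries. The S homeolog was at 6.95, 6.82, 6.12 and 5.91, then 7.07, 6.67, 6.90 and 6.52. L was the brightest homeolog of any pair here, and S, although near the array median, stayed at least 6 log2 under it on every array; the difference was 6.78 ± 0.15 (limma adjusted p = 7.67e-10). The cytochrome cyp26a1, which breaks down retinoic acid, had L at 9.63 to 10.28 and S at 2.82 to 5.29, a difference of 6.22 ± 0.30. The S values of normal replicate 2 and sex-reversed replicate 1, 5.29 and 5.10, stood above the other 6, which reached 3.66.

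The other pairs of this group came from varied pathways. The type I BMP receptor bmpr1a differed by 6.13 ± 0.15, with its L probe sets at 8.79, 7.30 and 6.72 and S at 2.66. The cullin cul1, scaffold of the SCF ubiquitin ligase, differed by 6.08 ± 0.12 and the homeobox factor dlx2 by 5.72 ± 0.11. The anti-apoptotic membrane protein tmbim6 differed by 5.82 ± 0.12, and both probe sets of its S homeolog were dim, at 2.95 and 2.64. The membrane-binding annexin anxa2 had L at 7.39 in normal replicate 2 and at 9.24 to 11.87 elsewhere, and S at 3.27 to 4.79. The S homeologs of bmpr1a, cul1, dlx2 and tmbim6 were all under the lower quartile of every array. The S homeolog of utp15, a part of the complex that processes the small-subunit ribosomal RNA, was brighter at 5.27 and differed from L by 5.47 ± 0.10 (SE).

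The 10 pairs with the largest excess of S were cox4i2, prrc1, dusp1, hmgn2, usp1, aftph, rwdd1, ddx39a, pnrc2 and myo1c, with L minus S from -6.94 to -5.56. The L mean was under the lower quartile of every array in 7 of them. The S homeolog of cox4i2, an isoform of subunit 4 of cytochrome c oxidase, read 10.26, 10.70, 10.18 and 10.21 in normal and 10.47, 10.57, 9.94 and 10.22 in sex-reversed ovaries. Its L homeolog read 3.66, 3.53, 3.75 and 3.37, then 3.36, 2.95, 3.54 and 2.84. Every L value was under the array's lower quartile, and L minus S was -6.94 ± 0.15 (limma adjusted p = 7.15e-10).

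The nucleosome-binding protein gene hmgn2 had S at 9.86, 9.77, 9.95 and 9.56 in normal and 9.84, 9.77, 9.74 and 9.33 in sex-reversed ovaries. Its L homeolog read 3.79, 3.02, 3.34 and 3.5, then 3.58, 3.32, 3.31 and 3.30. L minus S was -6.33 ± 0.12, and its SD over arrays of 0.27 was under the median SD of L minus S of all pairs, 0.46. The MAP kinase phosphatase dusp1 had L minus S of -6.44 ± 0.22 and the deubiquitinase usp1, which acts on PCNA and FANCD2, of -6.10 ± 0.17. For ddx39a, an RNA helicase of mRNA export, S was at 11.1 and L at 5.43. The decapping cofactor pnrc2 had 3 S probe sets at 9.995, 9.68 and 8.44 against L at 4.44. For rwdd1 the order rested on a single probe set, since the second S set lay at 3.06, close to L at 2.92.

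**Figure D3:**
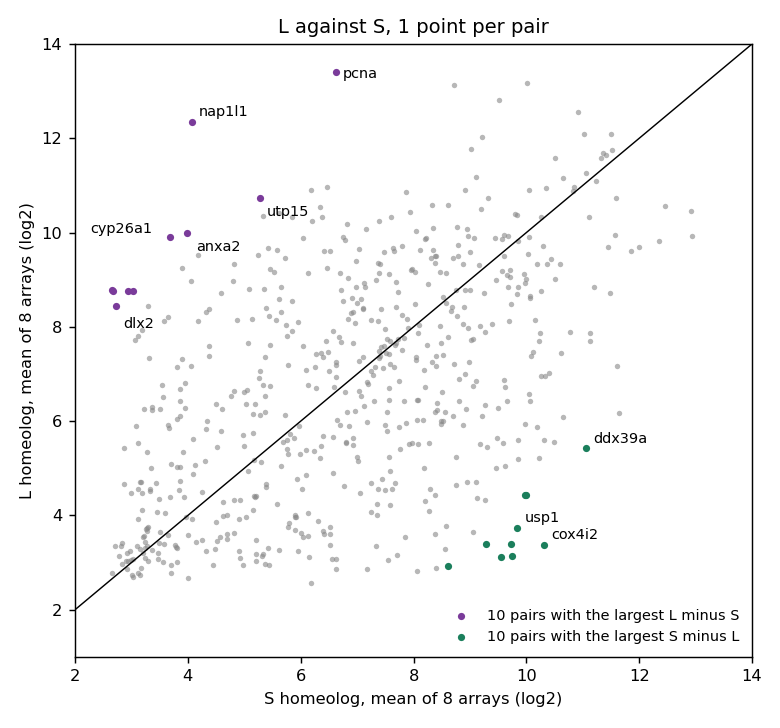
Mean of 8 arrays of the L homeolog (vertical, log2) against that of the S homeolog (horizontal, log2), 1 point per pair, with the line of equal signal. Purple marks the 10 pairs with the largest L minus S and green the 10 with the largest S minus L; the points scatter widely on both sides of the line, 299 above it and 323 below.

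Pairs were then grouped by function, with lists chosen with earlier results of these data known. Each list's count stands beside that of all pairs, in which L passed in 40.2% and S in 43.1%. Cell cycle and replication genes had 19 pairs, of which L was brighter in 12, S in 6, and 1 did not pass. The L count takes in cdc42se2, an effector of the GTPase Cdc42 that the list drew in by its name. The median L minus S of the list was 1.07. L was the brighter for cyclin ccnb1.2, at 13.2 against 10.01 for S and with a difference of 3.17 ± 0.09, for the Cdk1-inhibiting kinase wee1 (3.16 ± 0.14), for the anaphase-promoting complex subunit cdc23 (2.80 ± 0.11) and its activator cdc20 (1.07 ± 0.11). Of the replicative helicase subunits, mcm5 and mcm4 had 5.36 ± 0.20 and 2.66 ± 0.17, whereas mcm6.2 was brighter from S. Smaller differences with L the brighter were seen for the mitotic kinases cdk1, 0.59 ± 0.14, and aurka, 0.34 ± 0.11.

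The A-type cyclins went the other way. So did ccnd1, mcm6.2, cdk11b and plk2, the last with L at 5.05 and S at 5.65. The S homeolog of ccna1, the cyclin A of oocytes and early embryos, read 13.04, 12.95, 12.82 and 12.95 in normal and 13.06, 13.00, 12.93 and 12.68 in sex-reversed ovaries. Its L homeolog read 9.88, 10.11, 9.93 and 9.92, then 9.93, 9.85, 10.06 and 9.72. L minus S was -3.0 ± 0.09, the lowest of the list, and it varied over arrays with an SD of 0.13. For ccna2, the cyclin A of somatic cells, it was -2.57 ± 0.10, with L at 4.68 and S at 7.25.

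Genes of mRNA storage and germ plasm had 6 pairs, with L brighter in 3 and S in 3. The deadenylation-promoting RNA-binding protein celf1 had L at 9.68 and S at 5.42, a difference of 4.26 ± 0.12. The deadenylase adaptor btg4, which acts in the clearance of maternal mRNA in mammals, was bright from both homeologs, at 12.1 and 11.5, and differed by 0.59 ± 0.12. The cytoplasmic poly(A)-binding protein pabpc1 had L minus S of -1.41 ± 0.10, the nuclear one pabpn1 -1.40 ± 0.12, and the mRNP granule protein lsm14b -1.48 ± 0.19.

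Oxidative phosphorylation had 8 pairs, with L brighter in 6, S in 2 and a median of 1.78. The 6 ranged from 0.96 ± 0.10 for uqcrc2, a core subunit of complex III, to 2.79 ± 0.11 for sdha, the flavoprotein of complex II, with cox6a1 at 1.64 ± 0.10 and ndufa4 at 1.99 ± 0.13 between them. The exceptions were cox4i2 and atp5pb, a stator subunit of ATP synthase, at -3.24 ± 0.22. Glycolysis and citric acid cycle genes were split, with L brighter in 3 and S in 3 of 6 pairs, from pdha1, the E1 alpha subunit of pyruvate dehydrogenase, at 1.66 ± 0.11 to mdh2, mitochondrial malate dehydrogenase, at -1.75 ± 0.11. The mdh2.S probe set of 11.4 can match several transcripts by its suffix, and with the plain set at 9.02 the difference was 0.67 in the opposite direction.

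S was the brighter in most pairs of the protein degradation lists. In the proteasome 4 of 5 pairs had S brighter and 1 had L, with a median of -2.35. They ran from -3.90 ± 0.12 for psmd14, the deubiquitinase of the 19S lid, and -3.62 ± 0.11 for psma3, a ring subunit of the core, to -1.48 ± 0.15 for psmd2. The lid subunit psmd8 had 2.40 ± 0.11, with its L probe sets at 9.39 and 8.48. In the ubiquitin conjugation list 3 of 4 pairs had S brighter, and cul1 was the exception. The 3 were uba1, the activating enzyme E1, at -2.25 ± 0.14, and usp1 and usp44. The last ones are deubiquitinases, which remove ubiquitin, so the S count is not one of conjugation alone.

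Nuclear pore and transport genes had S brighter in 6 of 8 pairs and L in 1, with a median of -1.36. With probe sets averaged S was brighter in 5 and L in 2. The Ran-binding protein ranbp1 was lowest at -4.55 ± 0.13, with S probe sets at 10.7 and 7.40 against L at 6.10. The pore subunit nup88 was highest at 0.73 ± 0.15. Splicing genes had S brighter in 5 of 8 and L in 2, with a median of -1.12, and S in 4 with probe sets averaged. The splicing kinase prpf4b had -3.22 ± 0.12, with L probe sets at 6.28 and 3.53, and the Sm protein snrpd3 -2.58 ± 0.16, and hnrnpc had 0.86 ± 0.13. For hnrnpu and hnrnpa1 the order depended on the probe set. RNA helicases had S brighter in 2 of 3 pairs, ddx39a and ddx5, at -3.29 ± 0.11, and L in ddx21 at 1.30 ± 0.10.

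Translation factors and tRNA synthetases had S brighter in 4 of 6 and L in 2, with a median of -1.64 that moved to -0.42 when the probe sets of each homeolog were averaged. The cap-complex helicase eif4a1 had -3.85 ± 0.18, and eif3a, the largest subunit of its factor, had 4.78 ± 0.12 with S probe sets at 5.62 and 3.93 against L at 10.4. Chaperones had L brighter in 4 of 9, S in 3 and 2 that did not pass, or L in 3 with probe sets averaged. They ran from cct8, a subunit of the cytosolic chaperonin, at 1.70 ± 0.10 to hspa9, the mitochondrial Hsp70, at -2.14 ± 0.14.

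Histone and chromatin genes had L brighter in 5 of 11 pairs and S in 5. The extremes were h2az1 at 3.32 ± 0.18 and hmgn2. When probe sets were averaged 3 pairs had S brighter. For the nucleoplasmin family genes npm1 and npm3 and for hmgb2 and hmgb3 the order depended on the probe set. The deacetylase hdac1 was bright from both, 9.95 for L and 9.61 for S, and differed by 0.34 ± 0.10. Tubulins and kinesins had S brighter in 4 of 7 and L in 2, with a median of -0.99, and with probe sets averaged each homeolog was the brighter in 3 and the median was -0.15. The mitotic kinesin kif11 read 11.0 for L and 6.47 for S, with a difference of 4.49 ± 0.10 and an SD of 0.19 over arrays. The microtubule regulator stmn1 had -2.77 ± 0.10.

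Actin and myosin genes had L brighter in 2 of 6 pairs and S in 2, from actr10, a dynactin subunit, at 1.23 ± 0.37 to cfl1, the actin-severing cofilin, at -1.63 ± 0.15. Vesicle traffic had S brighter in 7 of 13 and L in 5, from vps37b, an ESCRT-I subunit, at 3.72 ± 0.13 to rab4b, a GTPase of endosome recycling, at -5.50 ± 0.14. Solute carriers had S brighter in 3 of 5 and L in 1, from the zinc transporters slc39a9 at 3.98 ± 0.17 to slc30a6 at -3.11 ± 0.21.

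In the TGF-beta and BMP list S was brighter in 3 of 5 pairs and L in 1, and bmpr1a at 6.13 stood against the procollagen protease bmp1 at -3.74 ± 0.14, with S probe sets at 8.30, 6.35 and 5.43, and the signal transducer smad1 at -2.73 ± 0.13. The list median of -2.04 became -0.26 when probe sets were averaged, with S brighter in 2 pairs. In the Wnt list L was brighter in 2 of 4 and S in 2. The L homeolog of ctnnb1, the beta-catenin that transduces the signal, had probe sets at 10.2 and 8.81 against S at 6.19, a difference of 4.05 ± 0.17. The receptor fzd8 had -1.73 ± 0.19.

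Patterning transcription factors were mostly dim, with L brighter in 6 of 18 pairs, S in 8 and 4 that did not pass. The list also holds the nuclear receptors nr3c1, nr2c1 and nr5a2, so its counts are not of patterning factors alone. The S count was 5 without normal replicate 3, without sex-reversed replicate 2 or without sex-reversed replicate 4. With probe sets averaged L and S were the brighter in 7 each. The list ran from dlx2 to the homeobox gene msx1, at -4.10 ± 0.17 with S at 8.75. Extracellular matrix and integrin genes had L brighter in 2 of 4 and S in 2, or L in 1 with probe sets averaged. The matrix protein sparc had -4.80 ± 0.25, and the fibronectin receptor subunit itga5 had 2.94 ± 0.18, or 0.19, which did not pass, with plain probe sets alone. Keratins and junctions had L brighter in 3 of 5 and S in 2, from krt18.1, a simple-epithelium keratin, at 4.51 ± 0.43 to the tight junction protein cldn5 at -2.21 ± 0.12. No pair of egg envelope glycoproteins or mitochondrial ribosomal proteins was measured, and the sole cytosolic ribosomal pair was rps3a.

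**Figure D4:**
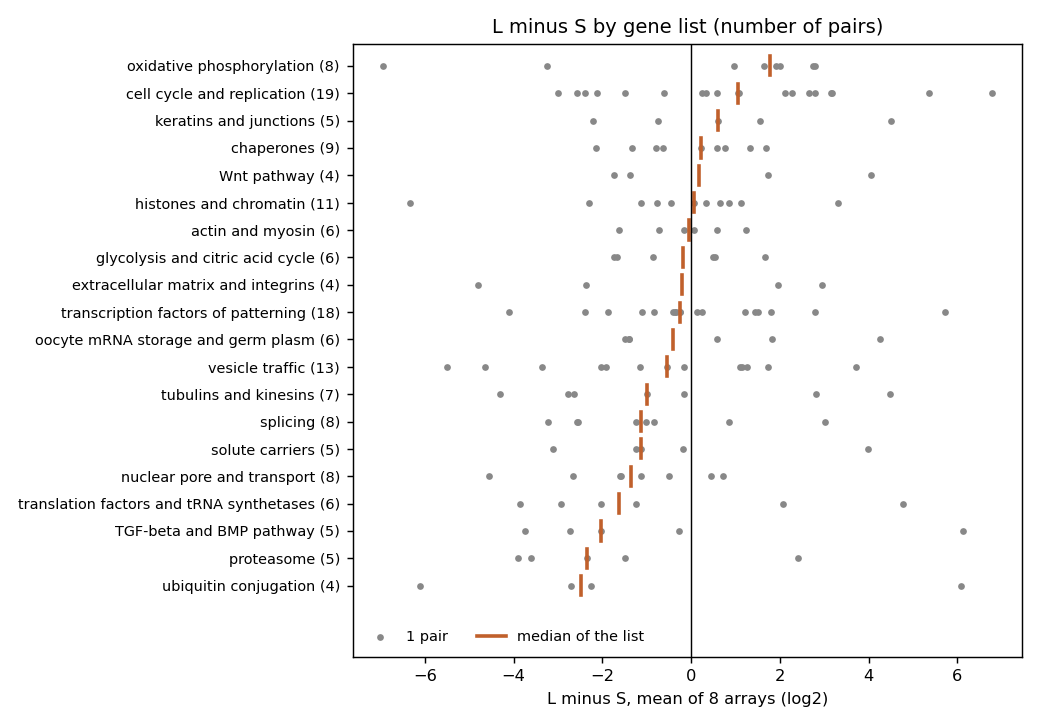
L minus S (log2, mean of 8 arrays) for each pair of the 20 gene lists with at least 4 pairs, with the number of pairs in brackets. Each grey point is a pair and the orange bar is the list's median, which runs from 1.78 in oxidative phosphorylation to -2.48 in ubiquitin conjugation; every list has points on both sides of 0.

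The homeologs of a pair varied together over the 8 arrays only weakly. Pearson's r between L and S had a median of 0.09 over the 622 pairs, with quartiles of -0.23 and 0.38. It was above 0 in 344 pairs (55.3%) and above 0.5 in 96 (15.4%). The L homeolog of a pair with the S homeolog of another gave a median of -0.00 over 386262 combinations, with 49.9% above 0 and 11.4% above 0.5. The 2 brightest probe sets of a single symbol gave 0.14, with 61.4% and 24.1%. These are descriptions, since pairs share arrays and are not replicates. Centred on the mean of each array set the median for pairs was 0.10, and without normal replicate 3 it was 0.013. In pairs with both members at 6 or above the medians were 0.12 for homeologs and 0.24 for probe sets of a symbol.

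Most homeologs varied little. The SD over arrays had a median of 0.29 for L and 0.32 for S, and neither member reached 0.5 in 394 pairs. L alone reached it in 91, S alone in 110, and both in 27. In these 27 pairs the median r was -0.10, with 8 (29.6%) above 0. The L of a pair with the S of another under the same filter gave -0.06, with 45.3% above 0 over 702 combinations, and 48 symbols whose 2 brightest probe sets both reached 0.5 gave 0.45.

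By an exact permutation test of r over the 8 arrays, two-sided, 0 of 622 pairs passed at an adjusted p under 0.05, and the lowest adjusted p was 0.108. At an unadjusted p under 0.05 there were 40 pairs (6.43%), 26 with r above 0 and 14 below. Spearman's rho gave 0 adjusted and 35 unadjusted. Among the 777 symbols 6 passed and 113 (14.5%) did so unadjusted.

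The ribosomal protein gene rps3a had both homeologs bright and alike. L read 11.12, 10.76, 11.44 and 11.25 in normal and 10.53, 11.06, 10.78 and 10.73 in sex-reversed ovaries. S read 10.87, 10.68, 11.11 and 10.94, then 10.68, 10.97, 10.76 and 10.79. Both were highest in normal replicate 3 and lowest in normal replicate 2 or sex-reversed replicate 1. L minus S was 0.11 ± 0.09 and did not pass. Its r was 0.93 (exact permutation p = 0.00171, adjusted 0.213), its rho 0.81 (exact permutation p = 0.0218), and r was 0.85 without the 2 arrays farthest from the median of L. Centred on array sets it was 0.94.

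The membrane and growth-cone protein gene basp1 was chosen after its values were seen, as one of the pairs with the lowest p. L read 6.87, 7.84, 7.62 and 7.68 in normal and 6.84, 6.76, 6.50 and 7.25 in sex-reversed ovaries. S read 8.07, 8.94, 8.89 and 8.67, then 8.18, 8.23, 7.72 and 8.48. Normal replicates 2 to 4 were the highest for both, and the groups overlapped. Its r was 0.96 (exact permutation p = 0.000496, adjusted 0.108) and its rho 0.88 (exact permutation p = 0.00724), with 0.97 for r without the 2 farthest arrays. The second probe set of basp1.S had a mean of 4.65, under L. Both kept probe sets carry the suffix of sets that can match several transcripts. Over the 79 pairs in which a kept probe set had such a suffix the median r was 0.18, and over the other 543 it was 0.08.

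Of the 27 variable pairs 1 (3.70%) had an r below -0.5, against 15.0% of the combinations of L with S of another pair under the same filter, and the pairs with the lowest r are given as values. The L homeolog of nde1, a dynein regulator, read 7.92, 9.65, 9.0 and 8.24 in normal and 9.89, 10.03, 7.94 and 8.13 in sex-reversed ovaries. S was at 7.20, 7.46, 6.24 and 7.26, then 6.12, 6.68, 7.74 and 7.13. L was high on the arrays of 1 array set and low on those of the other. The alpha tubulin tubal3.1 had L at 5.32, 5.56, 3.99 and 3.94, then 6.62, 6.79, 4.47 and 4.41. S was at 6.56, 3.82, 3.32 and 6.69, then 4.14, 4.58, 6.79 and 6.42, so that S was the brighter on the 4 arrays of 1 set and L on the 4 of the other. Its mean L minus S was -0.15 ± 0.69, and it was 0.24, 0.25 and 0.20 without normal replicate 4, sex-reversed replicate 3 and sex-reversed replicate 4. No correlation inside a single set of 4 arrays was computed, and r centred on array sets is not given for these pairs. The r of nde1 and tubal3.1 over all arrays takes in the shift between the array sets. It therefore does not show that L and S moved in opposite directions inside a set. On the 4 arrays where L of tubal3.1 was the brighter, L and S ranked the arrays in the same order. On the other 4 arrays the orders differed.

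The widest variation of L minus S over arrays was found in pairs with a homeolog whose arrays fell into separate levels. A homeolog was counted as having 2 levels where its 8 sorted values had a gap of at least 2, a fold of 4; this definition was chosen after the data were seen. It held for 43 of 1244 homeologs (3.46%), 20 L and 23 S, against 282 of all 11485 probe sets (2.46%). These shares are not of like sets, since the brightest probe set of each homeolog was kept. Median levels were 6.73 for L and 6.95 for S against 6.02 for all probe sets. The 43 homeologs lay in 42 pairs, and in 41 of these only 1 homeolog had 2 levels. With so small a share of homeologs in 2 levels, few pairs would hold both even if L and S were unrelated. No share over unrelated pairs was computed, so these counts do not show that homeologs dropped independently. In 36 of the 43 the partner's means over the low and the high arrays were within 0.5 of each other, in 4 the partner was lower by at least 0.5 and in 3 higher. The median absolute difference of the partner was 0.22. The partners' SD over arrays had a median of 0.28, so means within 0.5 would be usual for most splits of the arrays. No unrelated probe sets were compared in this way. A gap of 1.5 gave 69 homeologs and a gap of 3 gave 19, with both members of a pair in 2 of 67 and 1 of 18 pairs.

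In myc, the growth-promoting transcription factor, L read 9.58, 9.62, 9.78 and 9.82 in normal and 9.84, 9.62, 9.44 and 9.54 in sex-reversed ovaries. S read 8.64, 2.40, 8.82 and 8.80, then 7.99, 2.60, 8.42 and 8.58. The S values of normal replicate 2 and sex-reversed replicate 2 were thus under the lower quartile while L moved by less than 0.5 over all arrays. All myc probe sets carry the suffix of sets that can match several transcripts. The second probe set of myc.S, with a mean of 5.55, was 0.20 higher on those arrays than on the others.

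In kansl2, a subunit of a histone acetyltransferase complex, S read 8.70, 8.24, 8.70 and 8.88 in normal and 3.71, 3.22, 8.78 and 8.94 in sex-reversed ovaries. Sex-reversed replicates 1 and 2 were low and the other 6 alike, and the partner's means over low and high arrays differed by -0.07. In higd1a, a mitochondrial protein gene induced by hypoxia, it was L that moved, with 6.0, 9.95, 10.16 and 6.36, then 10.83, 9.55, 10.90 and 4.72. Its S homeolog lay between 4.61 and 6.99, with an SD of 0.74 over arrays.

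The beta tubulin tubb4b was the pair in which both homeologs had 2 levels, on different arrays. L read 12.58, 12.61, 12.31 and 9.10 in normal and 12.42, 12.45, 12.49 and 12.34 in sex-reversed ovaries. S read 10.56, 7.23, 10.39 and 10.33, then 7.20, 7.03, 10.48 and 10.47. L was low in normal replicate 4 alone, where S was high, so that S was the brighter there and L on the other 7 arrays.

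The S homeolog of cyclin ccnb2 read 8.17, 11.75, 11.84 and 8.09 in normal and 12.26, 12.23, 12.21 and 11.65 in sex-reversed ovaries, while L stayed between 11.89 and 12.29. The S homeolog of the fatty acid elongase elovl7 read 6.99, 10.35, 10.34 and 6.92, then 10.29, 10.25, 10.31 and 10.25. Both were low in normal replicates 1 and 4 alone. The L homeolog of geminin, gmnn, an inhibitor of replication licensing, was at 8.45 in normal replicate 3 and 8.66 in sex-reversed replicate 2 and at 11.09 to 11.48 elsewhere. The genes elovl7 and gmnn, and nasp and the fam3a and smim7 probe sets given next, were chosen after their values were seen.

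The S homeolog of nasp, a chaperone of linker and core histones, read 12.30, 9.43, 12.24 and 12.25 in normal and 9.48, 9.43, 12.47 and 12.25 in sex-reversed ovaries. Its 3 probe sets were lower by 2.85, 0.57 and 1.35 on the 3 low arrays than on the other 5. In all, 7 of the 43 homeologs had 9 further probe sets. Of these, 2 were lower by at least 1 on the same arrays, namely the third of nasp.S and the second of smim7.S, 6 moved by less than 1, and the third of fam3a.L was 2.33 higher.

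The low values were spread over animals of both groups. In normal replicates 1 to 4, 12, 10, 6 and 17 of the 43 homeologs were low, and in sex-reversed replicates 1 to 4, 12, 11, 10 and 17. A single array was low in 14 homeologs and 2 to 6 arrays in 29, and in 15 the low values were under the lower quartile of every array. The low arrays were exactly 1 array set in 2 homeologs, gsta1.L and large2.L. In most of the 29, however, all low arrays lay inside 1 array set. They were normal replicates 1 and 4 in ccnb2.S, elovl7.S and gramd2b.S. In nasp.S, phb.L and tubb4b.S they were normal replicate 2 and sex-reversed replicates 1 and 2. In smim7.S and cpa1.S the high arrays lay inside 1 set, and in ddt.L and hnrnpa3.L neither did. The sets were formed from these same data, and no test of this was made. The L homeolog of gsta1, a glutathione transferase, read 11.20, 3.15, 3.80 and 11.19, then 2.95, 2.87, 7.87 and 10.78. Its S homeolog read 7.79, 5.72, 6.28 and 7.72, then 6.0, 6.14, 6.31 and 6.67, and was higher by 1.08 on average on the arrays where L was high. Whether alleles, probe binding or transcript level differed between these animals was not tested, and in whole ovaries fewer cells of a type and less RNA per cell cannot be told apart.

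**Figure D5:**
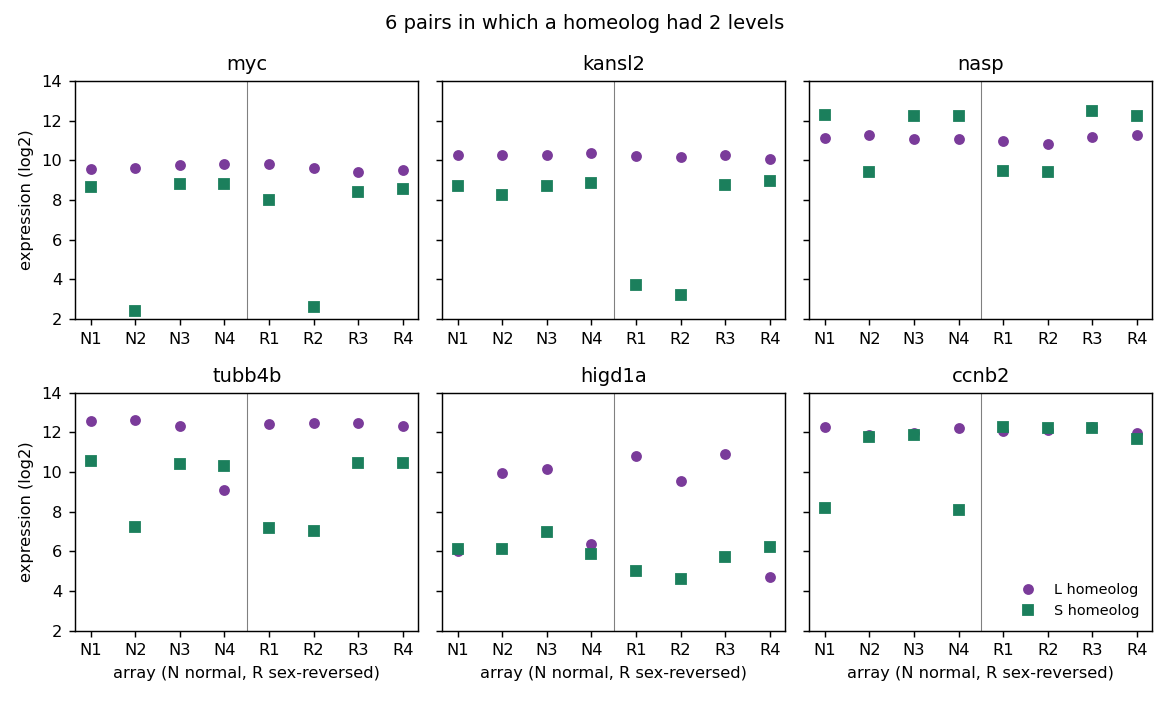
Log2 expression of the L (purple circles) and S (green squares) homeolog on each of the 8 arrays for 6 pairs, N for normal and R for sex-reversed ovaries with the replicate number. In each panel a homeolog drops on some arrays. In myc, kansl2, nasp and ccnb2 the other homeolog stays near its level, and in higd1a it varies with an SD of 0.74. In tubb4b each drops on different arrays.

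Ranked by r among the 27 pairs in which both members varied, gsta1, ddt, rsl1d1, rnpep and mixer were the 5 highest. The 5 lowest were nde1, tubal3.1, msi1, exd2 and pebp1.2, and no r passed after adjustment. The gene ddt, for a tautomerase related to macrophage migration inhibitory factor, had L at 2.78, 3.57, 8.64 and 2.54, then 8.68, 3.87, 9.05 and 8.86. For S the values were 3.85, 3.24, 6.20 and 3.01, then 3.39, 4.11, 5.51 and 5.38. Both were high in normal replicate 3 and sex-reversed replicates 3 and 4, and L alone in sex-reversed replicate 1. The nucleolar protein gene rsl1d1 had L at 6.91 and 6.27 in sex-reversed replicates 3 and 4 and at 9.62 to 9.99 elsewhere, and S at 5.88 to 8.74. The oocyte translation regulator msi1 had L at 7.76, 5.85, 6.20 and 8.34, then 5.66, 7.10, 5.88 and 6.30. For S the values were 5.21, 4.70, 6.0 and 4.11, then 4.38, 4.25, 5.35 and 4.58. L was the higher on every array, and by most in normal replicate 4, where S was lowest.

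The exonuclease gene exd2 had L at 10.49, 10.50, 10.37 and 10.61, then 9.05, 8.91, 10.40 and 10.62, with sex-reversed replicates 1 and 2 apart from the other 6. For S the values were 8.33, 9.53, 9.41 and 7.85, then 8.60, 9.58, 8.54 and 8.30. In rnpep, an aminopeptidase, L minus S read 1.33, 0.14, 0.48 and 0.16, then 1.12, 0.31, 0.03 and 3.21, and sex-reversed replicate 4 held the highest value. In mixer, a homeobox factor of endoderm formation, it read -1.64, -0.45, -0.64 and -0.06, then -0.70, 0.10, -0.36 and -0.17. In pebp1.2, of the phosphatidylethanolamine-binding family, it read -1.29, 1.44, -0.98 and -1.68, then 0.83, -0.50, -1.18 and -1.80, with both signs in each group.

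L minus S was also compared between sex-reversed and normal ovaries, a difference in which fixed probe binding cancels. By limma 0 of 622 pairs (0%) passed at an adjusted p under 0.05, and the lowest adjusted p was 0.706. At an unadjusted p under 0.05 there were 37 pairs (5.95%), 21 with L minus S higher in sex-reversed ovaries and 16 lower. Over all probe sets 0 of 11485 (0%) passed and 733 (6.38%) did so unadjusted, and of the 1244 homeologs 78 (6.27%). Both homeologs were among these in 2 pairs and a single homeolog in 74. With the array sets as a block, an alternative chosen after the data were seen, 0 pairs passed by limma, the lowest adjusted p was 0.116 and 49 pairs (7.88%) passed unadjusted. The ranges of L minus S of the groups did not overlap in 21 pairs (3.38%). Full separation of 4 against 4 arrays is found in a share of 0.0286 of random splits. The count is near that share, and no share over all probe sets is given here.

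The pairs with the smallest p are given as values, since none passed. In nr3c1, the glucocorticoid receptor, L minus S read -0.38, -1.56, -1.61 and -0.63 in normal and 0.13, 0.19, 0.30 and 0.78 in sex-reversed ovaries. The groups did not overlap, and the difference was 1.40 ± 0.33 (SE; limma adjusted p = 0.706). Its L homeolog lay at 3.28 to 4.27 in normal and 4.81 to 4.99 in sex-reversed ovaries, close to the lower quartile of the arrays. The S homeolog was also dim, with a mean of 4.63 over the arrays. The probe set listed for both homeologs had a mean of 7.47, above both, and its r was -0.09 with L and 0.47 with S.

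In ppp2r1a, the scaffold subunit of protein phosphatase 2A, L minus S read 2.87, 2.68, 2.47 and 3.29, then 1.56, 1.16, 1.84 and 2.01. It was lower in all 4 sex-reversed ovaries, by -1.18 ± 0.27. In the tyrosine kinase fyn it read -2.97, -2.99, -2.77 and -2.95, then -3.48, -4.26, -3.83 and -3.62, a difference of -0.88 ± 0.22 with no overlap. In arf4, a GTPase of the Golgi, it read 1.87, 1.37, 1.27 and 1.70, then 0.58, 0.29, 0.60 and 1.15, a difference of -0.90 ± 0.25. The second probe set of arf4.S read 8.01, 8.24, 8.35 and 8.06, then 8.25, 8.24, 8.18 and 7.85, and overlapped between groups. The kept set read 7.91 to 8.38 in normal and 8.18 to 9.07 in sex-reversed ovaries, and it overlapped as well.

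For atp5pd, subunit d of ATP synthase, L minus S read 2.21, 2.05, 2.26 and 1.77 in normal and 4.16, 2.17, 3.36 and 4.01 in sex-reversed ovaries. Sex-reversed replicate 2 lay among the normal values, and the difference was 1.36 ± 0.42. For calr, the endoplasmic reticulum chaperone calreticulin, it was 0.70 ± 0.23, for cldn5 -0.88 ± 0.25 and for the transcription factor cebpa -1.06 ± 0.31. For cpa1, carboxypeptidase A1, it was 1.76 ± 0.54, and S was at 5.57 and 5.74 in normal replicates 1 and 4 and at 2.87 to 3.54 elsewhere. The limma adjusted p was 0.765 for each of these 5 pairs.

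Of 16 genes fixed for their part in the ovary or in earlier comparisons of these samples, 8 were measured as pairs. Besides ccnb2, nr3c1, fyn, atp5pd, cldn5 and cebpa these were axin2, a scaffold that restrains Wnt signalling, and capn5, a calcium-dependent protease. In axin2 L minus S read -1.42, -1.46, -0.28 and -1.51, then -1.17, -0.67, -2.07 and -2.49. In capn5 it read -5.06, -4.03, -4.71 and -4.58, then -5.03, -4.93, -4.51 and -5.10. The groups overlapped in both, and S was the brighter on 8 of 8 arrays.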

How the data were processed

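Total RNA from 8 hybrid ovaries had been labelled with biotin and hybridised to Affymetrix Xenopus laevis arrays, per the labels' protocols. The values the authors deposited are log2 signals, each for a probe set, and the submitters' processing notes name RMA without a version. That method subtracts background, brings arrays to a common distribution and sums up the probes of a set. No label gives the log base, which was taken to be 2 because the values span the range usual for RMA. The number of arrays limits the precision, and detection above background was not tested. Samples were grouped by their titles.

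Gene names are those of the platform annotation and may be outdated. A single symbol was listed for 6798 of 11485 probe sets, several for 110 and none for 4577. Sets with several or none were left unnamed. L minus S was formed on each array from the brightest probe set of each homeolog. It was fitted with limma 3.58.1 in R 4.3.3 (lmFit, eBayes, two-sided) with a group term, and a pair passed at a p-value under 0.05 after Benjamini-Hochberg adjustment. All probe sets were fitted likewise between groups. Errors are SE from limma unless SD is named. Correlations and array medians were tested by exact permutation in Python 3.11.15 with numpy 2.4.6 and scipy 1.17.1, and figures used matplotlib 3.10.9. The code was tested on simulated data with known answers.

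Named pairs were the 10 with the largest difference in each direction, the 6 with the largest SD, the 5 with the highest and 5 with the lowest r among variable pairs, the 4 per direction with the smallest group p, the extremes of each gene list and 16 fixed genes. Other pairs are named where the text says so, or as further members of a list. The pairs, lists and rules were chosen with earlier results of these data known. Alternatives were the probe sets kept, filters on level, normalization, the fitted model and leaving out each array. No sequence of probes or genes was used here.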

Additional observations from a re-analysis of the deposited data

Results flagged for a closer look

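In 18 of the 166 groups of 4 arrays tested over named pairs and array summaries, the highest or lowest array stood apart from the other 3 by Dixon's criterion at the 95% level. Chance gives such an array in about 1 in 20 unselected groups. Groups of the same pair or array are not independent. Some pairs, among them myc, higd1a and kansl2, were named for a large SD over arrays, so that rate is no baseline here. The values follow, with no explanation given.

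Homeologs with separate levels gave several of them. In myc, L minus S was 7.23 in normal replicate 2, with the other 3 normal ovaries at 0.94 to 1.02, and 7.02 in sex-reversed replicate 2, with the others at 0.95 to 1.85. In hnrnpdl, an RNA-binding splicing regulator, it was 5.70 in normal replicate 4 against 1.12 to 1.34. In tubg1, the gamma tubulin of centrosomes, it was -6.40 in normal replicate 1 against -3.84 to -3.38, and -6.43 in sex-reversed replicate 4 against -3.86 to -3.40. In higd1a it was -1.52 in sex-reversed replicate 4 against 4.94 to 5.82.

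In pairs with a dim homeolog, nap1l1 gave 8.09 in normal replicate 4 against 8.42 to 8.47 and 7.49 in sex-reversed replicate 2 against 8.34 to 8.50. The pair cyp26a1 gave 4.65 in normal replicate 2 against 6.62 to 6.81 and 4.85 in sex-reversed replicate 1 against 6.52 to 6.84. In prrc1 the value was -5.99 in sex-reversed replicate 1 against -7.14 to -7.04. In slc39a9 it was 5.02 in sex-reversed replicate 3 against 3.70 to 3.88. In itga5 it was 3.82 in normal replicate 4 against 2.49 to 2.55.

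Among the rest, kansl2 gave 2.03 in normal replicate 2 against 1.51 to 1.59 and ranbp1 -5.13 in sex-reversed replicate 2 against -4.48 to -4.43. In fyn the value was -2.77 in normal replicate 3 against -2.99 to -2.95, and in axin2 -0.28 in normal replicate 3 against -1.51 to -1.42. The share of pairs with L the brighter was 49.7% in sex-reversed replicate 2 against 48.7% to 48.9%.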

How the results depend on the processing

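With both homeologs at 6 or above, 119 pairs had L and 107 had S brighter of 283 tested, and the median L minus S was 0.055. The median absolute L minus S was 1.35 with all probe sets averaged, 1.39 with 1 probe set per homeolog, 1.44 with plain sets, 1.14 with both and 1.88 with 1 or both homeologs at 6 or above. The median r was -0.10 where both SDs reached 0.5. Group calls were 0 in 19 settings and 37 at an unadjusted p. Leaving out 1 array gave 241 to 249 pairs with L and 255 to 265 with S brighter, 0 to 0 group calls, medians of L minus S of -0.11 to -0.06, absolute medians of 1.46 to 1.51, median r of 0.013 to 0.11 and group differences in the median of -0.00271 to 0.027, below 0 without normal replicate 1. Counts of 2-level homeologs were 42 to 47.

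With the replicate number as a block (replicate block) 248 pairs had L and 271 S brighter, with 0 group calls by limma. The correlations used to check the pairing are not those of whole arrays, which lay at 0.943 to 0.972. In this check same-numbered arrays correlated by -0.19, 0.24, -0.19 and 0.17, and 2 of 8 correlated best with their own number. Across groups, the correlations of this check were positive inside an array set and negative between sets. They therefore cannot show whether the numbers pair the arrays.

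L minus S of named pairs was recomputed in other settings, and a call here is that of the test against 0. Of 1279 such values 1249 kept direction and call, 15 lost the call and 7 gained it. The lost and gained calls were all in settings that left out an array, with exceptions. These were itga5 with plain sets and nr3c1 and ccnb2, which gained it with the array sets as a block. Between groups 0 pairs passed with that block. The order reversed in 8: gsta1 (-0.35, -0.36, -0.14 and -0.57 without normal replicates 1 and 4 and sex-reversed replicates 3 and 4, and up to 0.66 without another array), tubal3.1 (0.24, 0.25 and 0.20 as given above, and down to -0.55) and mdh2 (0.67 with plain sets). The cause was not tested. A symbol update was not run, as no table for it was used here. With RMA values, a shift shared by most transcripts would not show, and detection above background was not tested.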
